A study of Mus musculus with 2 samples.

Results

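Interferon-gamma, a cytokine of activated lymphocytes, was followed through 9 of the 31053 genes of the count matrices: the cytokine gene Ifng, its receptor chains Ifngr1 and Ifngr2, the inducing cytokine subunit Il12b, the receptor chains Il12rb1 and Il12rb2, the signal transducer Stat4, and the response genes Irf1 and Socs1. They were matched by symbol, and the rule uses no measured value. They were read in 2 droplet 3' RNA libraries (10x Genomics, 1 per group) from lung, sorted for cells positive for CD45 and negative for a CD45 antibody given into the blood, a stain that marks leukocytes inside vessels. Both came from adult mice of the genotype written Gli1creERT/Hhipflo/flox, which carry a tamoxifen-inducible Cre driven by Gli1, a gene of Hedgehog-responsive mesenchymal cells, and floxed Hhip, which encodes a restraint on Hedgehog ligands. One group was injected with oil and the other with tamoxifen. The oil controls carry the same alleles but were not given the inducer, so an effect of tamoxifen itself and an effect of the Hhip deletion cannot be told apart. The labels do not state how many mice make up a library or their sex, and Gli1 marks mesenchymal cells rather than the leukocytes sorted here.

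Interleukin-12, a dimer of the Il12b and Il12a products made by dendritic cells and macrophages, binds a receptor of the Il12rb1 and Il12rb2 chains on T cells and natural killer (NK) cells, and STAT4 then drives transcription of Ifng. Il12b also encodes a subunit of interleukin-23. Secreted interferon-gamma binds IFNGR1 and IFNGR2, which many cell types carry, and acts through the kinases JAK1 and JAK2 to induce genes such as Irf1, a transcription factor, and Socs1, an inhibitor that dampens the same receptor. In the lung the pathway is known for activating macrophages against intracellular microbes and for shaping inflammation.

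On GRCm38 (GENCODE M21), Ifng lies at chr10:118441046-118445892, Il12b at chr11:44400063-44414033, Il12rb1 at chr8:70808449-70821424, Il12rb2 at chr6:67291318-67376188, Stat4 at chr1:51987148-52107189, Ifngr1 at chr10:19591949-19610229, Ifngr2 at chr16:91547072-91565623, Irf1 at chr11:53770014-53778374 and Socs1 at chr16:10782240-10785536. All 9 are protein-coding, and Il12rb2 and Socs1 are on the minus strand.

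Of the 9 genes, 8 had a promoter in RefSeq (GRCm38.p6), and Il12rb1 is named only. Each window runs from 250 bases before to 50 bases after the start, 5′ to 3′ on the gene's strand. The promoters were searched on both strands for TTCNNNGAA, the form of site that STAT dimers bind and which reads the same on both strands, and for GAAANNGAAA, a form bound by interferon regulatory factors. The promoters of Irf1, Socs1 and Ifng are shown because they are the response genes and the cytokine, with matches in capitals.
Irf1 (first of its start sites, chr11:53769764-53770063, plus strand): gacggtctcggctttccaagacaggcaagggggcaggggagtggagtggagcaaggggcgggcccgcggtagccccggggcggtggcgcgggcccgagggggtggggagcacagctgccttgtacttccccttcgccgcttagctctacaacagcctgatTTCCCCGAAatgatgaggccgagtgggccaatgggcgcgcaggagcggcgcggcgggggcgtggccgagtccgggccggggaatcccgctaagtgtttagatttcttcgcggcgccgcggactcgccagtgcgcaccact
Socs1 (chr16:10785487-10785786, minus strand): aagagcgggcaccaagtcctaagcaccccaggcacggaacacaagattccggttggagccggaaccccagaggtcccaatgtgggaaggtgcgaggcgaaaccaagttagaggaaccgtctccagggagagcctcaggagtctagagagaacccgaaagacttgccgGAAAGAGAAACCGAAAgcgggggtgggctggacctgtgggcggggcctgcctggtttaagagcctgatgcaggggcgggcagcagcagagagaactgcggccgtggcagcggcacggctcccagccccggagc
Ifng (chr10:118440796-118441095, plus strand): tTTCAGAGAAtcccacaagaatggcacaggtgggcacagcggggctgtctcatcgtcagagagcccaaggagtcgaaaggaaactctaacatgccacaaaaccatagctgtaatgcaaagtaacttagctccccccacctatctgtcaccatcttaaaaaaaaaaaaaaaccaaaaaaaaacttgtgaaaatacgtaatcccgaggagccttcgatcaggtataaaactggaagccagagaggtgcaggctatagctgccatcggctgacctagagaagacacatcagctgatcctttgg
TTCNNNGAA begins 90 bases before the start in Irf1, 249 bases before it in Ifng and 123 bases before it in Il12rb2, and 8.30% of 32851 RefSeq promoters of this length hold it. GAAANNGAAA begins 83 and 77 bases before the start of Socs1, as overlapping matches, and 97 bases before the second start of Stat4, and 3.44% of promoters hold it. A match describes letters in this window and is not a shown binding site.

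Cells were barcodes with at least 300 genes and under 10% mitochondrial UMIs (unique molecular identifiers, each counting 1 captured transcript). This left 6794 of 10342 oil and 10138 of 12980 tamoxifen barcodes, with 53146681 and 79853762 UMIs. The mitochondrial limit removed 31.9% of oil and 20.7% of tamoxifen barcodes. Only 18 kept barcode sequences occurred in both libraries. Cells were placed in 7 gates by marker transcripts and, for context, in 5 further gates. In each of the 7 gates, in both libraries, all 5 markers that the gate did not use were above their level over all kept cells. The same held for the added Ccr7 Fscn1 dendritic, neutrophil and endothelial gates. Markers of another cell type passed too, namely all 5 cDC1 markers in the tamoxifen NK and cDC2 gates. So did all 5 endothelial markers in the fibroblast gate of both libraries. In oil, all 5 fibroblast markers passed in the endothelial gate and all 5 ILC2 markers in the T gate. Passing thus does not show that a gate is free of other cells. A barcode could enter more than 1 gate, and 9.43% of oil and 13.7% of tamoxifen barcodes entered more than 1 of the 7 gates. Below, barcodes of more than 1 gate are those of more than 1 of these 7, unless all 12 gates are named. Overlap with the 5 added gates is not counted in them. Levels are in CPM, the gene's UMIs scaled by all UMIs of the gate, and ratios are log2 of the tamoxifen over the oil level, with a 95% interval in parentheses. The gate called ILC2 took the summed UMIs of Gata3 and Il1rl1, and that called cDC2 those of Cd209a and Clec10a, so either gene alone could suffice. In the ILC2 gate 4 of 5 markers in oil and 3 of 5 in tamoxifen were above their level over all kept cells. In the cDC2 gate 3 and 4 of 5 were. The ILC2 markers summed to 518 CPM in the ILC2 gate against 729 CPM in the T gate in oil, and the cDC2 markers to 2242 CPM in the cDC2 gate against 3160 CPM in the Ccr7 Fscn1 dendritic and 4006 CPM in the neutrophil gate. These markers thus do not single out either cell type, and ILC2 and cDC2 stand below only for the genes of those gates. With 1 library per group nothing could be tested between the groups, and intervals and limits cover counting error only. Levels are compared between gates and libraries, not between genes.

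Ifng was carried mainly by T cells, and of the 12 gates its level was highest in NK cells. The T gate held 423 Ifng UMIs in 171 of 3019 oil cells and 627 in 213 of 5127 tamoxifen cells, or 84.6% and 86.0% of all Ifng UMIs in kept cells. This is 20.3 and 17.7 CPM, a log2 ratio of -0.19 (-0.37 to -0.01). The NK gate held 64 UMIs in 31 of 207 oil cells and 70 in 17 of 113 tamoxifen cells, at 38.0 and 56.8 CPM (0.58, 0.07 to 1.09). In both libraries the NK level was above the T level beyond counting error, though below that of the CD8 subset of T cells given further on. The gates of B cells, macrophages, cDC1, cDC2, ILC2, fibroblasts and endothelial cells were at 1.98 CPM or below, and the 17 oil and 9 tamoxifen UMIs of cDC1 all lay in barcodes of a further gate. Against this, 1 barcode held 29 of the 30 Ifng UMIs of the tamoxifen Ccr7 Fscn1 dendritic gate (16.5 CPM), and 1 barcode held all 4 of the oil neutrophil gate (14.6 CPM). Over all kept cells Ifng was at 9.41 and 9.13 CPM (-0.04, -0.21 to 0.12).

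**Figure D1:**
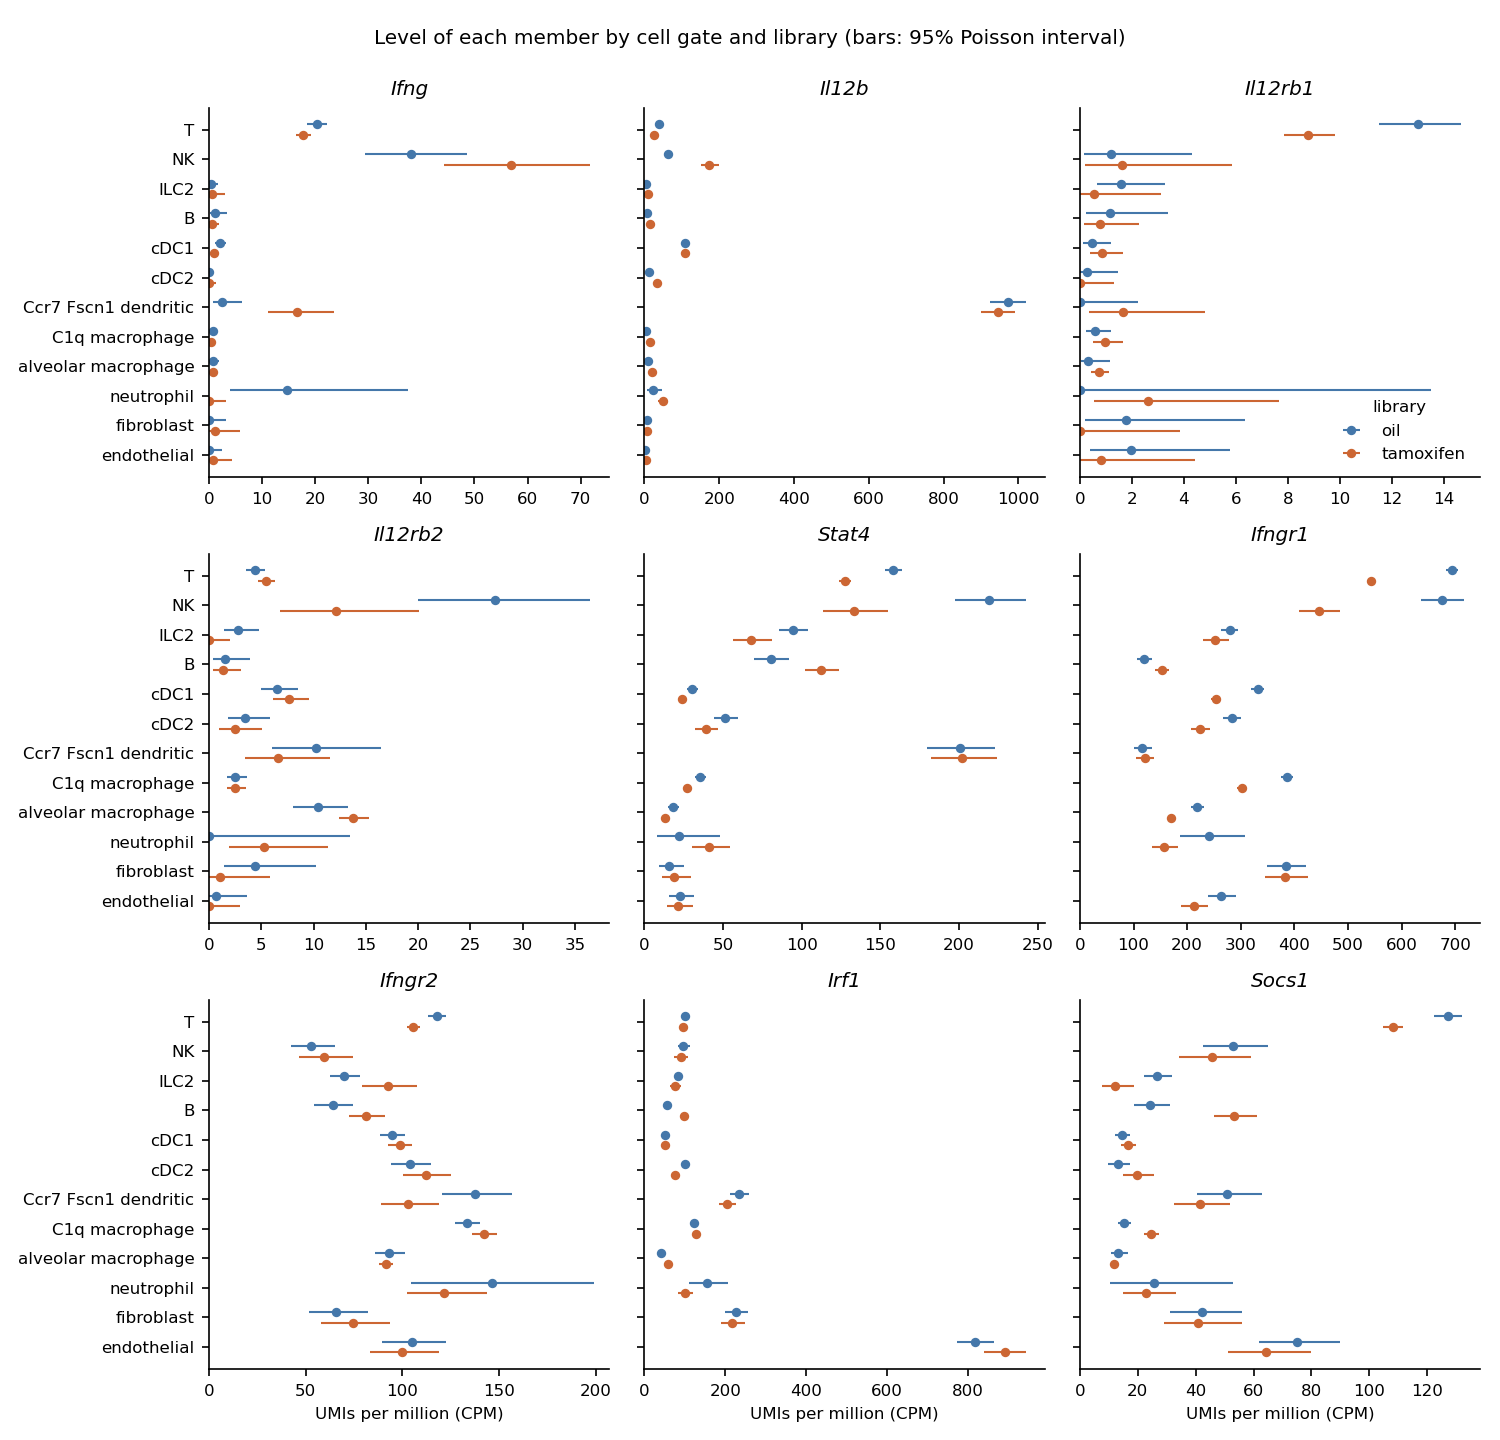
Level of each of the 9 genes (CPM, linear axes that differ between panels) in 12 cell gates of the oil and the tamoxifen library, with 95% Poisson intervals. Ifng is highest in the NK and T gates, Il12b in the Ccr7 Fscn1 dendritic gate at 971 and 945 CPM, and Irf1 in the endothelial gate at 818 and 891 CPM.

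The small difference in T cells depended on which barcodes counted. Without barcodes that met more than 1 gate, Ifng in T cells was at 27.0 and 26.5 CPM (-0.03, -0.21 to 0.16). Alveolar macrophage markers that no gate used (Marco, Siglecf, Chil3, Fabp1 and Car4) summed to 433 CPM in the oil and 1530 CPM in the tamoxifen T gate, and barcodes of more than 1 gate made up 16.0% and 21.3% of it. None of those 5 markers was at 0 there, and neutrophil markers summed to 1128 and 3719 CPM. Their part in the other T cell ratios was not tested. After thinning every cell to 1500 UMIs, an Ifng UMI was found in 2.70% (2.12 to 3.37) of oil and 2.17% (1.78 to 2.62) of tamoxifen T cells, against 5.66% and 4.15% before thinning. B cells, which should lack Ifng, had 0 of 229 and 0 of 410 cells with an Ifng UMI at that depth, which allows up to 1.31% and 0.732%. The thinning left out 275 oil and 333 tamoxifen T cells as too shallow.

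A few T cells held a large share of the Ifng UMIs. Among Ifng-positive T cells, 56.7% in oil and 53.5% in tamoxifen had a single UMI, and the most in 1 cell were 30 and 36. The 20 oil and 30 tamoxifen cells with at least 5 UMIs held 45.2% and 54.4% of the gate's Ifng UMIs. In the NK gate 3 cells of each library had at least 5 UMIs. They held 34.4% of Ifng UMIs in oil and 67.1% in tamoxifen, where 1 barcode alone had 29. That barcode is the one of the Ccr7 Fscn1 dendritic gate above, with 23646 UMIs, 13 of them of Ncr1 and Klre1, 14 of Fscn1 and 28 of Ccr7. With no cell counted for more than 10 UMIs, the NK levels were 38.0 and 39.0 CPM (0.03, -0.54 to 0.60). With the mean over cells in place of the summed UMIs it was lower in tamoxifen (-0.10). Without barcodes of more than 1 of the 7 gates, which were 17.4% of the oil and 36.3% of the tamoxifen NK gate, the NK levels were 60.8 and 125 CPM (1.04, 0.52 to 1.56). Without barcodes of more than 1 of all 12 gates, a setting added after seeing the data, they were 71.7 and 105 CPM (0.55, -0.06 to 1.16). The NK difference was thus near 0 with that barcode capped. Its interval lay above 0 when barcodes of more than 1 of the 7 gates were left out, and held 0 when all 12 gates were kept apart, with a ratio close to that over the whole gate.

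**Figure D2:**
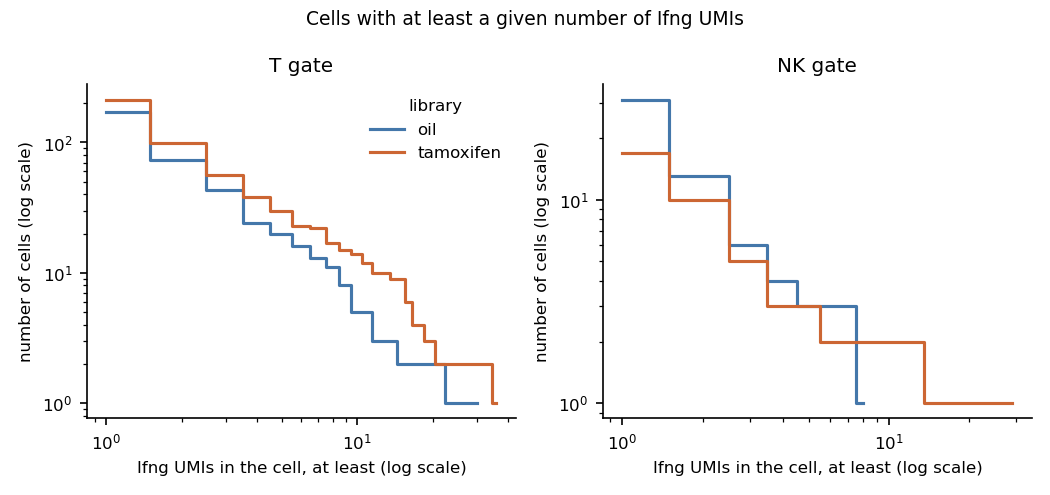
Number of T gate cells (left) and NK gate cells (right) with at least the number of Ifng UMIs on the x axis, for the oil and tamoxifen libraries, on log axes. Most positive T cells have 1 UMI, and the curves end at 30 and 36 UMIs in T cells and at 8 and 29 UMIs in NK cells.

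Within the T gate, CD8 T cells had the highest Ifng level and gamma-delta T cells differed most between the libraries. CD8 T cells (Cd8a without Cd4) were at 112 CPM in oil against 83.9 CPM in tamoxifen (-0.42, -0.78 to -0.05), with Ifng in 38 of 171 and 34 of 225 cells. CD4 T cells were at 41.8 and 36.6 CPM (-0.19, -0.53 to 0.14), and T cells outside these gates at 11.3 and 9.55 CPM (-0.25, -0.54 to 0.05). Gamma-delta T cells had 16 UMIs in 9 of 410 oil cells and 66 UMIs in 28 of 589 tamoxifen cells, at 5.51 and 16.8 CPM (1.61, 0.81 to 2.50). In female gamma-delta cells, told by Xist, the counts were 10 and 16 UMIs (0.27, -0.96 to 1.57). In male cells, told by Y-linked genes, they were 2 and 30 UMIs (3.70, 1.72 to 6.81), with 15 of the 30 in 1 cell. The female interval held 0 and the male one did not, and the ratios of the sexes were not tested against each other. Since Ifng was used in no gate, the gates do not fix its level, but T subsets called from 1 or 2 UMIs leave most T cells, 1988 in oil and 3535 in tamoxifen, in no subset.

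T cells with an Ifng UMI were set beside those without in each library. Ranked by the lower bound of the ratio between T cells with and without an Ifng UMI, in the library where it was lower, the first 12 genes were Ccr10, Nkg7, Ms4a4b, Klrc1, Klrb1c, Cd8a, Ccl5, Cd8b1, Klrc2, Xcl1, Lag3 and Ctsw. Nkg7, a granule protein of cytotoxic lymphocytes, was at 718 CPM in Ifng-positive and 165 CPM in Ifng-negative oil cells, and at 776 and 143 CPM in tamoxifen. Xcl1, a chemokine that attracts cDC1, was at 166 against 46.8 CPM in oil and at 204 against 19.0 CPM in tamoxifen. Tbx21, which encodes the T-bet factor that drives Ifng, was at 24.4 against 6.26 CPM in oil and 30.1 against 6.07 CPM in tamoxifen. Eomes, the related T-box factor, was at 3.76 against 4.64 CPM in oil and 1.88 against 2.69 CPM in tamoxifen, on 4 and 3 UMIs in the positive cells. The median depth was 5245 UMIs in positive and 6038 in negative oil cells and 5206 and 5629 in tamoxifen. As these cells were picked by a member gene, the ratios describe them and are not a test.

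Among the other members, Il12rb2 was higher in Ifng-positive T cells, at 10.3 against 4.04 CPM in oil (1.36, 0.30 to 2.27) and 20.1 against 4.76 CPM in tamoxifen (2.07, 1.48 to 2.63). Stat4 was at 208 against 156 CPM in oil and 192 against 124 CPM in tamoxifen. Ifngr2, the signalling chain of the receptor, was lower in the cells that carried Ifng, at 33.8 against 122 CPM in oil (-1.86, -2.37 to -1.38) and 30.7 against 109 CPM in tamoxifen (-1.83, -2.27 to -1.42). Ifngr1, the binding chain, was not lower, at 892 against 684 CPM in oil and 565 against 542 CPM in tamoxifen. Il17a, the type 17 cytokine, was found in 12.3% of Ifng-positive and 18.6% of Ifng-negative oil T cells, and in 26.8% and 25.5% of tamoxifen T cells.

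**Figure D3:**
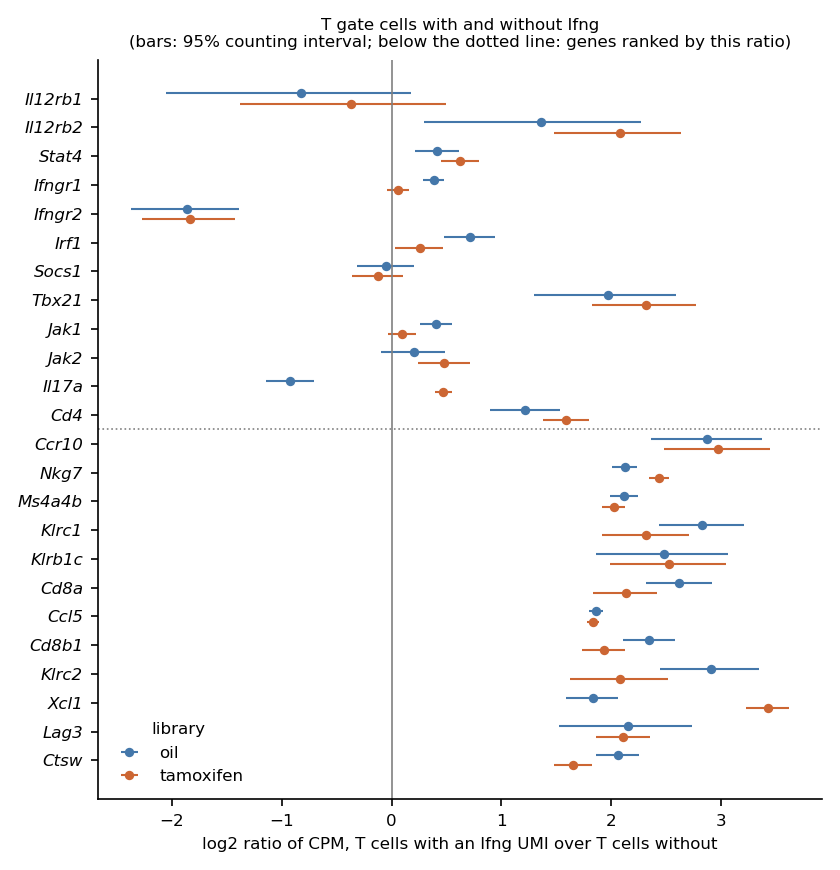
Log2 ratio of the level in T gate cells with an Ifng UMI over that in T gate cells without, for members and pathway genes (above the dotted line) and for the 12 genes ranked by this ratio (below it), in both libraries with 95% counting intervals. Ifngr2 lies at -1.86 and -1.83, and Tbx21, Il12rb2 and the ranked genes lie to the right of 0 in both libraries.

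Over 24 points (12 gates in 2 libraries), the genes whose log2(CPM + 1) ran most closely with that of Ifng, among 12851 genes with at least 100 UMIs, were Xcl1 (Pearson's r 0.917), Cited4 (0.896), Cd160 (0.877), Ncr1 (0.857), Prf1, Klrb1f, Klrk1 and Gm14029. Ncr1 helped to define the NK gate. The points share libraries and partly barcodes, so these are descriptions of likeness.

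Il12b, the inducer, was a gene of dendritic cells, foremost of those with Ccr7 and Fscn1, the migratory state. In this gate 70 of 134 oil cells and 69 of 146 tamoxifen cells had Il12b, at 971 and 945 CPM (-0.04, -0.14 to 0.06). The cDC1, which cross-present antigen, were at 107 CPM in oil against 108 CPM in tamoxifen (0.01, -0.12 to 0.13), in 78 of 539 and 85 of 701 cells. They ranked next in oil. In tamoxifen the NK gate lay between, at 174 CPM, and its Il12b is described below. In Ccr7 Fscn1 dendritic cells the ratio was 0.29 (0.17 to 0.40) in female and -0.98 (-1.26 to -0.70) in male cells, and 10 cells held 47.5% of the gate's Il12b UMIs in oil and 69.1% in tamoxifen, with at most 132 and 333 UMIs in 1 cell. The ratios had opposite signs in the sexes, with 23 oil and 30 tamoxifen cells in males. The sexes were not tested against each other, and the intervals do not cover differences between cells. Without barcodes of more than 1 gate cDC1 were at 130 and 91.0 CPM (-0.52, -0.70 to -0.33). Such barcodes were 39.3% of the oil and 52.8% of the tamoxifen cDC1 gate. Il12a, the partner subunit, was nearly undetected, with at most 12 UMIs in any of the 8 gates where pathway genes were counted. Il23a, the partner in interleukin-23, was at 7.85 CPM in oil against 29.2 CPM in tamoxifen Ccr7 Fscn1 dendritic cells (1.90, 1.00 to 2.89), on 13 and 53 UMIs.

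Il12b in macrophages was higher with tamoxifen but came from few cells. In C1q macrophages it was at 4.97 and 14.5 CPM (1.54, 1.12 to 1.99), from 16 and 17 cells. The C1q macrophage ratio was 0.62 (0.06 to 1.21) in female cells, 0.29 (-0.78 to 1.39) in male cells and 0.38 (-0.13 to 0.90) with UMIs capped at 10 per cell. In alveolar macrophages it rested on 62 UMIs in 17 of 476 oil cells and 548 in 48 of 2507 tamoxifen cells (1.01, 0.63 to 1.41). With UMIs capped at 10 per cell the alveolar macrophage ratio was -0.29 and in female cells -0.21, against 3.33 in male cells. In cDC2 it was at 11.6 and 32.5 CPM (1.48, 0.95 to 2.04), from 8 and 7 cells. Fewer than 1 barcode in 20 carried Il12b in each of these 3 gates in both libraries.

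Il12b UMIs in the T and NK gates lay in deep barcodes. In the T gate Il12b was at 39.5 CPM in oil against 25.6 CPM in tamoxifen (-0.63, -0.76 to -0.49), in 52 and 58 barcodes. Those barcodes had a median of 12319 and 13579 UMIs, against 5945 and 5576 in T barcodes without Il12b, and a median of 223 and 165 UMIs of MHC class II genes, against 2 and 1. A UMI of Fscn1, the dendritic cell marker, was in the barcodes that held 74.3% and 63.7% of these Il12b UMIs. In the NK gate Il12b was at 64.2 and 174 CPM (1.44, 1.10 to 1.78), from 10 and 12 barcodes with medians of 20290 and 17590 UMIs. Barcodes with Fscn1 held 62.0% and 32.7% of the Il12b UMIs of the NK gate, and 31.6% and 82.1% of those of the B gate. cDC1 markers summed to 745 and 1030 CPM in the NK gate and those of Ccr7 Fscn1 dendritic cells to 2643 and 1820 CPM. No marker of either list was at 0. The latter list includes Ccl5, which was also at 2136 CPM in Ifng-positive and 588 CPM in Ifng-negative oil T cells. The part of Ccl5 in this sum was not tested. Without barcodes of more than 1 of the 12 gates, Il12b in the NK gate was at 7.54 and 5.13 CPM (-0.56, -3.90 to 1.93), so that most of its Il12b lay in mixed barcodes. No gate of the 7 took in 50.1% of oil and 46.9% of tamoxifen Il12b UMIs, and the Ccr7 Fscn1 dendritic gate is not among the 7.

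The genes that ran most closely with Il12b over the same 24 points were Psme2 (0.921), Id2 (0.896), Gm13546, Mthfd2 and Epsti1.

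Of the interleukin-12 receptor chains, Il12rb1, shared with the interleukin-23 receptor, was a T cell transcript and lower with tamoxifen. T cells had 13.0 and 8.79 CPM (-0.57, -0.81 to -0.33), and the other 11 gates were at 2.62 CPM or below. Without barcodes of more than 1 gate the T level was 17.8 and 12.7 CPM (-0.48, -0.73 to -0.23). Gamma-delta T cells had the highest level, at 26.2 and 15.8 CPM (-0.73, -1.24 to -0.23), followed in oil by CD8 T cells at 12.3 CPM, where tamoxifen had 4.55 CPM on 7 UMIs. CD4 T cells were at 11.4 and 7.20 CPM (-0.66, -1.37 to 0.05). All 4 T subsets had lower values in tamoxifen, and in CD4 T cells the interval held 0.

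Il12rb2, the chain specific to the interleukin-12 receptor, was highest in NK cells in oil, and was there at 27.3 CPM in oil against 12.2 CPM in tamoxifen (-1.17, -2.11 to -0.30), on 46 and 15 UMIs. In tamoxifen alveolar macrophages, at 13.8 CPM, and NK cells had the highest values and were not apart beyond counting error. The NK cells were not apart from cDC1, at 7.68 CPM, either (0.67, -0.24 to 1.47). In T cells it was at 4.36 and 5.45 CPM (0.32, -0.04 to 0.70), and at 4.27 and 3.71 CPM without barcodes of more than 1 gate (-0.20). Alveolar macrophages also held Il12rb2, with 65 UMIs in 56 oil cells and 379 in 322 tamoxifen cells, against 91 and 193 UMIs in T cells. Their level was 10.4 and 13.8 CPM (0.41, 0.03 to 0.81), or 10.5 and 15.1 CPM without barcodes of more than 1 gate, while Il12rb1 was there at 0.320 and 0.729 CPM. Trac, the T cell receptor gene, was at 17.8 CPM in alveolar macrophages with Il12rb2 and 12.4 CPM in those without in oil, and at 17.8 and 16.6 CPM in tamoxifen. Thinned to 1500 UMIs, 2.56% of oil and 2.12% of tamoxifen alveolar macrophages had an Il12rb2 UMI, against 0 of 229 and 1 of 410 B cells, and 1.74% and 2.02% as the mean over all draws. Serbp1 overlaps Il12rb2 on the other strand and was at 351 to 565 CPM in the 12 gates, and no source used here says whether counting used strand. In oil, Il12rb2 was at 27.3 CPM in NK cells and 0.657 CPM in endothelial cells, with Serbp1 at 565 and 434 CPM. The part of Serbp1 reads in the Il12rb2 counts was not tested, and the Il12rb2 values are uncertain.

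Stat4, which links the receptor to Ifng, was highest in NK cells, Ccr7 Fscn1 dendritic cells and T cells. NK cells were at 219 CPM in oil against 133 CPM in tamoxifen (-0.72, -0.99 to -0.45), and T cells at 158 and 127 CPM (-0.31, -0.38 to -0.25). Ccr7 Fscn1 dendritic cells were at 200 and 202 CPM (0.01, -0.21 to 0.23), with ratios of -0.30 (-0.56 to -0.04) in female and 1.45 (0.83 to 2.11) in male cells. Gamma-delta T cells were lower with tamoxifen, at 221 and 158 CPM (-0.49), and CD8 T cells were not, at 210 and 208 CPM (-0.01). Without barcodes of more than 1 gate the T cell ratio was -0.20 (-0.27 to -0.13) and the NK ratio -0.38 (-0.67 to -0.10). With all 12 gates kept apart, the NK ratio was -0.26 and its interval held 0 (-0.57 to 0.03). B cells differed in the other direction, at 80.5 and 112 CPM (0.48, 0.24 to 0.73).

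Ifngr1 was highest in T and NK cells and was lower with tamoxifen in most gates. T cells were at 694 CPM in oil against 543 CPM in tamoxifen (-0.35, -0.39 to -0.32), in 2635 of 3019 and 4251 of 5127 cells. NK cells followed at 675 and 446 CPM (-0.60, -0.75 to -0.45), above every gate other than T cells in both libraries beyond counting error. Of the CD4, CD8 and gamma-delta gates, CD4 T cells had the widest difference, 762 against 444 CPM (-0.78, -0.86 to -0.70). In female CD4 T cells the ratio was -0.96 (-1.05 to -0.86) and in male ones 0.06 (-0.26 to 0.39), where CD8 T cells had the widest difference of the 3 (-0.85, -1.17 to -0.54). C1q macrophages had 385 and 302 CPM (-0.35), cDC1 331 and 254 CPM (-0.39), cDC2 283 and 225 CPM (-0.34) and alveolar macrophages 219 and 170 CPM (-0.36). Fibroblasts were at 384 and 383 CPM (-0.00, -0.21 to 0.20) and Ccr7 Fscn1 dendritic cells at 116 and 121 CPM (0.06), so the lower level was not found in every cell type. B cells were higher, at 120 and 153 CPM (0.35, 0.14 to 0.55), but at -0.48 in male cells and -0.10 after thinning. Across the alternative settings the T cell ratio lay between -0.44 and -0.24. With all 12 gates kept apart, the NK ratio was -0.29 (-0.47 to -0.11) and that of alveolar macrophages -0.10 (-0.26 to 0.05).

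Ifngr2 was not lower with tamoxifen in most gates. It was at 118 and 106 CPM in T cells (-0.16, -0.23 to -0.08), 134 and 142 CPM in C1q macrophages (0.09) and 93.3 and 91.3 CPM in alveolar macrophages (-0.03). Ccr7 Fscn1 dendritic cells were lower (-0.42, -0.71 to -0.13), and B cells (0.35, 0.07 to 0.63) and ILC2 (0.40, 0.12 to 0.68) higher. In male T cells the ratio was -0.56 (-0.71 to -0.40), against 0.05 (-0.05 to 0.14) in female ones. Within T cells Ifngr2 was highest in gamma-delta cells, at 171 and 151 CPM, and lowest in CD8 T cells, at 47.3 and 41.0 CPM. This order is the reverse of that of Ifng in those subsets, where CD8 T cells were highest and gamma-delta T cells lowest in oil.

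**Figure D4:**
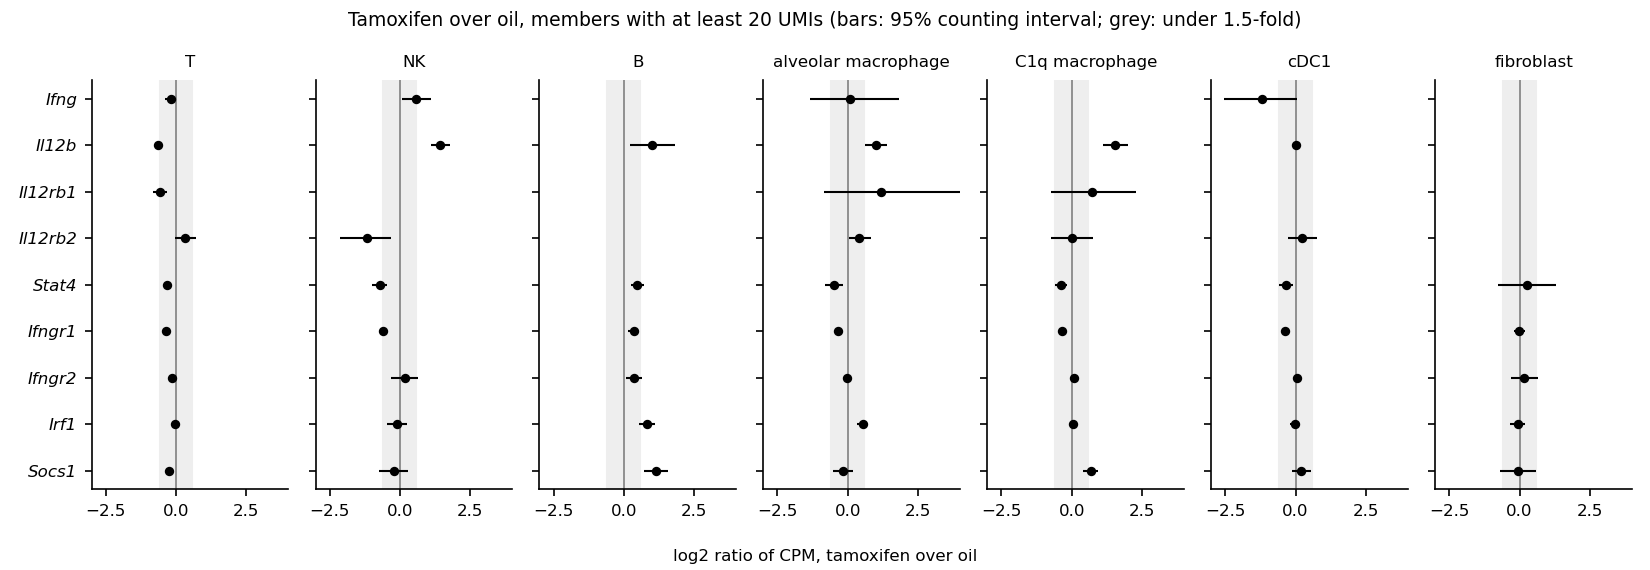
Log2 ratio of the level in tamoxifen over oil for members with at least 20 UMIs, in the 7 gates of the rule, with 95% counting intervals, the grey band marking differences under 1.5-fold. Ifngr1 lies left of 0 in T, NK, alveolar macrophage, C1q macrophage and cDC1 gates, and Socs1 lies right of the band in B cells and C1q macrophages.

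Of the response genes, Irf1 was by far most abundant in endothelial cells, at 818 and 891 CPM (0.12, 0.01 to 0.24). Ccr7 Fscn1 dendritic cells and fibroblasts, which followed at 204 to 233 CPM, were not apart from each other in either library. T cells were at 99.2 and 96.4 CPM (-0.04, -0.12 to 0.04) and C1q macrophages at 122 and 127 CPM (0.05, -0.05 to 0.16), close to equal in the libraries. CD8 T cells were higher with tamoxifen, at 119 and 161 CPM (0.43, 0.12 to 0.74), and CD4 T cells lower, at 128 and 99.7 CPM (-0.36, -0.56 to -0.17). B cells were higher, at 55.4 and 97.3 CPM (0.81, 0.53 to 1.10), and at 61.7 and 74.1 CPM with all 12 gates kept apart (0.27, -0.11 to 0.65). Alveolar macrophages were at 40.5 and 58.7 CPM (0.53, 0.34 to 0.73), with the ratio at 0.61 in female and -0.73 in male cells.

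Socs1, the inhibitor, was highest in T cells, at 127 CPM in oil against 108 CPM in tamoxifen (-0.24, -0.31 to -0.16). In female T cells the ratio was -0.48 and in male T cells 0.21. C1q macrophages were higher with tamoxifen, at 15.4 and 24.6 CPM (0.68, 0.41 to 0.95), and the ratio was 0.84 without barcodes of more than 1 gate. B cells were higher too, at 24.3 and 53.2 CPM (1.13, 0.72 to 1.57), and in male B cells -0.23. ILC2 were lower, at 26.7 and 12.3 CPM (-1.12, -1.85 to -0.46), with -2.27 (-3.94 to -0.99) in female cells, on 5 tamoxifen UMIs, and 0.13 (-1.07 to 1.25) in male cells. The ILC2 gate held C1q macrophage markers at 533 and 1140 CPM and B cell markers at 459 and 129 CPM, whose part in its ratio was not tested. The B cell gate held alveolar macrophage markers at 44.3 CPM in oil against 335 CPM in tamoxifen, and their part in its ratios was not tested.

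Over all kept cells, none of the 9 members differed by 1.5-fold or more, where 22.4% of all features with at least 20 UMIs did. In T cells 1 of 9 was past this size (Il12b, lower) against 17.0%. In NK cells 4 of 8 were (Il12b higher, and Il12rb2, Stat4 and Ifngr1 lower) against 24.9%, and in B cells 3 of 6 (Il12b, Irf1 and Socs1, higher) against 20.5%. Alveolar macrophages had 2 of 9 against 22.7%, C1q macrophages 3 of 8 against 14.6%, cDC1 1 of 8 against 14.6% and fibroblasts 0 of 5 against 21.5%. CD4 T cells had 4 of 9 against 18.2%, CD8 T cells 1 of 8 against 21.6% and gamma-delta T cells 2 of 9 against 16.5%, with 1 of 9 in other T cells against 18.5%. Of the added gates, ILC2 had 2 of 6 against 19.5%, cDC2 1 of 7 against 16.5%, Ccr7 Fscn1 dendritic cells 2 of 8 against 22.4%, neutrophils 4 of 6 against 38.4% and endothelial cells 0 of 5 against 19.2%. Over the 7 gates, 14 of 53 pairs of a member and a gate were past 1.5-fold. With so few members, these shares do not set the genes apart from other genes.

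Target genes of interferon-gamma were counted in 8 gates, and differences between gates were not tested. Of 20 listed targets, 11 of 19 with enough UMIs were at least 1.5-fold higher in tamoxifen C1q macrophages and none lower, where 8.23% of all features were higher and the median ratio was 0.61 for the list and 0.07 for all features. Cxcl9, a chemokine that draws T cells, was at 30.6 CPM in oil against 252 CPM in tamoxifen (3.04, 2.88 to 3.20), and Iigp1, an immunity-related GTPase, at 2.78 and 17.2 CPM (2.63). Irf1 itself was at 0.05 there and Socs1 at 0.68. Alveolar macrophage markers summed to 119 and 405 CPM in the C1q gate with none of 5 at 0, barcodes of more than 1 gate were 25.5% and 31.5% of it, and their part was not tested. T cells had 1 target higher and 1 lower of 18, against 9.31% and 7.66% of all features, with list and overall medians of 0.05. Ccr7 Fscn1 dendritic cells had 7 of 17 higher and 1 lower, against 22.4% of all features either way. NK cells had 5 higher and 3 lower of 17, against 10.1% and 14.9% of all features. Alveolar macrophages had 4 higher and 3 lower of 18, against 22.7% either way. The cDC1 had 3 of 19 higher and none lower, against 14.6% either way.

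In endothelial cells 8 of 17 targets were at least 1.5-fold lower with tamoxifen and none higher, against 10.5% of all features lower, with a list median of -0.49 against -0.03. Gbp2, a guanylate-binding protein, was at 82.8 and 38.9 CPM (-1.09, -1.60 to -0.60). Cxcl9 had 75 UMIs in oil and 0 in tamoxifen, and the number of cells that held them was not counted. Fibroblasts had 6 of 14 lower and none higher, against 10.2%, with a median of -0.53 against 0.01. In the fibroblast gate endothelial markers summed to 503 and 311 CPM and alveolar macrophage markers to 158 and 591 CPM. Of 15 genes induced by tissue dissociation, 3 were higher there and none lower, against 21.5% of all features either way, with a median of 0.39. The part of these markers and genes in the fibroblast ratios was not tested. The endothelial and fibroblast gates hold 281 and 257 and 99 and 85 cells that passed a sort for CD45, and C1q macrophage markers summed to 512 and 1018 CPM in the endothelial gate, whose part was not tested.

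In NK cells, 6 of 13 other inducers and their receptors were at least 1.5-fold lower and 1 higher, where 14.9% of all features were lower. Of 11 transcription factors of Ifng, 3 of 10 were lower and none higher. Tbx21 was at 29.7 and 11.4 CPM (-1.39) and Eomes, the other T-box factor of NK cells, at 54.1 and 21.1 CPM (-1.36). The gate's own markers summed to 1214 CPM in the oil and 726 CPM in the tamoxifen library, and its median depth was 5258 and 9377 UMIs. Genes induced by tissue dissociation were at least 1.5-fold higher in 5 of 15 cases in this gate, against 10.1% of all features, with Hspa1a at 30.9 and 183 CPM. The part of these in the NK ratios was not tested. Il18, a cytokine that acts with interleukin-12 on Ifng, was highest in alveolar macrophages among the 8 gates, at 255 CPM in oil against 430 CPM in tamoxifen (0.75, 0.68 to 0.83).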

How the data were processed

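Gene expression was measured in 1 oil and 1 tamoxifen single-cell library. The authors deposited unnormalised UMI counts, 1 matrix a library. Cell Ranger 5.0.1 and GRCm38 (mm10) are named in the submitters' processing notes, and no source used here gives the annotation or the strand setting. The kept libraries have a median of 6361 and 6431 UMIs per barcode.

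The gates were T (Cd3d, Cd3e and Cd3g, at least 1 UMI), NK (Ncr1 and Klre1, at least 1, without Cd3), B (Cd79a, at least 2), alveolar macrophage (Krt79 and Plet1, at least 2), C1q macrophage (C1qa and C1qb, at least 5), cDC1 (Xcr1 and Clec9a, at least 2) and fibroblast (Dcn and Col1a2, at least 3). Added gates were ILC2 (Gata3 and Il1rl1, at least 2, without Cd3, Ncr1 or Klre1) and cDC2 (Cd209a and Clec10a, at least 2, without Cd3). Further ones were Ccr7 Fscn1 dendritic (at least 1 of each, without Cd3), neutrophil (Retnlg and Cxcr2, at least 2) and endothelial (Cldn5 and Cdh5, at least 2). Except for Ccr7 and Fscn1, the limits apply to the summed UMIs of the genes named. UMIs were summed per gate and library and scaled by the gate total. Levels have exact Poisson, ratios exact conditional and shares Clopper-Pearson 95% intervals. A count of 0 was taken as 3 for a limit. Doublets were not removed, and Scrublet scores served an alternative in which 369 oil and 822 tamoxifen barcodes were left out. Its automatic threshold marked 4 and 416 barcodes. The median ratio of well-counted genes was 0.13 in B cells, 0.12 in alveolar macrophages and -0.27 in neutrophils, and within 0.1 of 0 in the other gates. The ratio step was tested on simulated independent Poisson counts. These leave out the clustering of UMIs in single cells, so the test cannot show how the intervals fare with it. scipy 1.17.1 and scanpy 1.11.5 were used.

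The members, gene lists and the rule for named genes (all members, and up to 4 list genes each way per list and gate by the interval bound nearest 0) were chosen with earlier results of these data known.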

Additional observations from a re-analysis of the deposited data

Results flagged for a closer look

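Among the 7 gates of the rule, in 4 pairs of a gene and a gate the tamoxifen over oil ratio had opposite signs in female and male cells, with both counting intervals clear of 0. The difference between the sexes was not tested, as each sex is 1 sample per group. Il12b in the NK gate was at 2.52 in female and -1.60 in male cells, on 47 oil and 185 tamoxifen UMIs of females and on 58 and 14 of males. All Il12b of this gate lay in 10 oil and 12 tamoxifen barcodes, and most of it in mixed ones, as described above. Ifngr2 in alveolar macrophages was at -0.18 in female and 0.46 in male cells. Irf1 in alveolar macrophages was at 0.61 in female cells and -0.73 in male cells. Socs1 in T cells was at -0.48 in female cells (137 and 98.4 CPM) and 0.21 in male cells (118 and 136 CPM). Outside the 7 gates the same held for 7 pairs of a gene and a gate or T cell subset. Il12b in Ccr7 Fscn1 dendritic cells was at 0.29 in female and -0.98 in male cells, and Stat4 there at -0.30 and 1.45. Stat4 in the cDC2 gate was at 0.53 and -2.32. Ifngr2 in CD4 T cells was at 0.40 in female and -1.99 in male cells. Socs1 was at -0.63 and 1.18 in CD4 T cells and at -0.49 and 0.32 in T cells of no subset. In gamma-delta T cells Il12b had 46 oil and 0 tamoxifen UMIs in females, a ratio of at most -4.35 taken against 3 counts, and in male cells 4 and 56 UMIs, or 3.60. Il12b of the whole T gate lay in 52 oil and 58 tamoxifen barcodes, which were deep and rich in MHC class II transcripts. Over all kept cells Socs1 was at -0.38 in female and 0.39 in male cells. Female cells were 54.7% of oil and 60.7% of tamoxifen kept cells and male cells 20.8% and 16.6%.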

How the results depend on the processing

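Over 53 pairs of a member and a gate and 14 alternative settings, 725 ratios were computed, of which 582 stayed inside the counting interval of the reported ratio, 122 left it and 21 changed sign where that interval excluded 0. Ratios against a count of 0 gave no value. Ifng in T cells stood at -0.19, at -0.64 in 1 random draw of 1500 UMIs per cell, at -0.44 as the mean over all such draws, and at 0.083 in male cells. The mean over draws, and leaving out barcodes of more than 1 of all 12 gates, were added after seeing the data. Ifng in NK cells stood at 0.58, at -0.10 as a mean over cells, at 1.44 in 1 thinned draw, at 0.035 with UMIs capped, at 1.15 in female and at -0.23 in male cells. In male cells, signs also changed for Socs1 in T (0.21), Il12b in NK (-1.60), Stat4 (-0.049), Ifngr1 (-0.48), Ifngr2 (-0.45) and Socs1 (-0.23) in B, Il12rb2 (-0.33) and Irf1 (-0.73) in alveolar macrophages, and Stat4 in cDC1 (0.11). In female cells they changed for Ifngr2 in T (0.045) and Il12b in alveolar macrophages (-0.21). Ifngr1 in B was at -0.032 as a mean over cells, -0.10 thinned and -0.024 over all draws. Il12rb2 in alveolar macrophages was at -0.19 thinned, Il12b there at -0.29 capped, Il12b in B at -0.62 without barcodes of more than 1 of the 7 gates, and Il12b in NK at -0.56 without those of more than 1 of all 12. The cause was not tested. Pairs past 1.5-fold were 14 of 53, 11 of 48 at 50 UMIs and 18 of 63 without a minimum. For pathway genes they were 53 of 226, 44 of 207 and 60 of 246. The 14 alternative settings covered the members only, so pathway genes were not checked for counts that rest on few cells. No paired analysis was possible because each group is 1 library. Low counts limit Il12rb1 and Il12rb2 most.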

Other observations

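Barcodes left out by the filters held 45 Ifng UMIs in oil and 22 in tamoxifen, and kept barcodes of no gate of the rule held 10 and 28. NK cells with Ifng had more Xcl1 than those without, at 1826 against 674 CPM in oil and 4317 against 357 CPM in tamoxifen. By the ranking used for T cells, Gm12840 came before Xcl1, and Sept1, Zfp36l2, Ikzf2 and Gimap3 came after it. Ifngr2 was lower in Ifng-positive NK cells as well, at 21.5 against 57.9 CPM in oil and 26.7 against 62.5 CPM in tamoxifen, on 5 and 3 UMIs in the positive cells. Il12b in gamma-delta T barcodes lay in cells of opposite sex in the libraries, with 46 female and 4 male UMIs in oil and 0 and 56 in tamoxifen.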
